A study of Mus musculus with 32 samples.

Results

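The chemokine ligands Cxcl12, Cx3cl1, Cxcl14 and Ccl2 and the receptors Cxcr4 and Cxcr7 were measured in the frontal cortex (FCtx) of 32 female mice. They were chosen by gene symbol from a list of 7 chemokine genes, and every probe carrying one of these symbols was taken. This gave 11 probes for 6 genes, out of 25697 probes and 18138 symbols on the array. The remaining gene of the list, Ccl27a, has no probe under that symbol, and the 2 probes under its older symbol, Ccl27, are described separately. The labels give the strain as C57BL/6J x FVB/NJ F1, and the methods name both directions of the cross. The 20 ethanol-treated mice were offered bottles of water and of 20% ethanol in short daily sessions for 20 days, and 12 matched mice served as controls. Their age is not given in the sources used here. The ethanol was drunk voluntarily, so the dose differed between mice and is not used here. The methods place the dissection 20 h after the last session and describe a frontal section without olfactory bulb.

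Chemokines are small secreted proteins that guide cells through G protein-coupled receptors. Cxcl12 signals through Cxcr4, which couples to inhibitory G proteins, and binds Cxcr7 (now Ackr3), an atypical receptor that takes up the ligand and recruits arrestins. In the brain this axis is known for placing migrating interneurons and for its expression by vessels and meninges. Cx3cl1, or fractalkine, is made mainly by neurons as a membrane-bound ligand, and its receptor Cx3cr1 is carried by microglia. Cxcl14 is a constitutively expressed ligand found in neurons, Ccl2 is an inducible attractant of monocytes, and Ccl27 is known best from skin.

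Each mouse had 1 Illumina MouseRef-8 v2.0 array. On these arrays a probe of 50 bases is read by many beads. The probes of Cxcl12 are shown first, because they lie at different places in its transcripts and differed in whether they were detected. Each line holds 30 bases of the probe as the array file lists it. Capitals mark the letters AATAAA, the common polyadenylation signal, which were found on either strand in 3.42% of all probes of the array. A match describes the letters only.

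Cxcl12 all-variant: gccggttcttcgagagccacatcgccagag
Cxcl12 variant 1 proximal: ctgactggggtcatgctaaggtttgccagc
Cxcl12 variant 1 distal: actgtgacattatatgcactagcAATAAAa
Cxcl12 variant 3: ctcggaaggaagatcggtggctgcgagctg
Cxcl12 unnumbered record: tcgacgggctagcagtgtctaagcagcgat
Cxcr4: tgtggtaaattgAATAAAgctagccgtgat

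The all-variant probe (ILMN_3158250) starts at base 188 of its transcript record, is typed A in the file, the code for a probe to all transcripts of a gene, and is placed at chr6:117121533-117121582. The variant 1 probes start at bases 485 (ILMN_2737302, chr6:117123722-117123771) and 1724 (ILMN_2746295, chr6:117124961-117125010). They are called proximal and distal here and lie 1239 bases apart, both in the transcript and in the genome. The variant 3 probe (ILMN_3078973) is typed I, the code for a probe to a single isoform, starts at base 2723 and is placed at chr6:117128467-117128516. The last probe (ILMN_2658908) starts at base 2871 of a Cxcl12 record for which the file gives neither a variant number nor coordinates, and it is called the unnumbered-record probe. All placed Cxcl12 probes are on the plus strand. The file does not name its genome build, and the positions fall outside the GRCm38 gene spans, so they are given only as the file writes them.

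Detection separated the probes into a bright and a dark set. A probe was counted as detected on an array when its detection p-value, which ranks it against negative control beads, was below 0.01. The all-variant, variant 1 proximal and unnumbered-record probes of Cxcl12, the Cx3cl1 probe and both Cxcl14 probes were detected on 32 of 32 arrays. The variant 1 distal and variant 3 probes of Cxcl12 and the probes of Cxcr7 and Ccl2 were detected on 0 of 32. Over the array, 33.5% of probes were detected on all arrays and 43.5% on none. The variant 1 distal probe was therefore dark on every array while the proximal probe, 1239 bases upstream on the same record, was detected on every array. The GC content of the distal probe is 30%, a level that 3.50% of probes share or lie under, and that of the proximal probe is 52%, which is the median of the array. The part of probe composition in the missing signal was not tested.

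The variant 1 distal probe had detection p-values from 0.0652 to 0.900, with a median of 0.489. Those of the variant 3 probe ran from 0.217 to 0.986, those of Cxcr7 from 0.0351 to 0.982 and those of Ccl2 from 0.0840 to 1. At a threshold of 0.05, Cxcr7 was detected on 1 array of an ethanol-treated mouse and the other 3 probes on none. A probe that is not well above background gives only an upper bound, so low expression, a transcript that lacks the probe site and a poorly binding probe cannot be told apart here.

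Cxcr4, the signalling receptor of Cxcl12, lay at the edge of detection. Its probe (ILMN_2630459) was detected on 0 of 20 arrays of ethanol-treated mice and on 2 of 12 arrays of controls. Fisher's exact test, two-sided, gave p = 0.133 for this difference and an adjusted p = 0.958 over the 5905 probes detected on some but not all arrays. Of these probes, 0 (0.0%) passed an FDR of 10%. At a detection threshold of 0.05 the counts were 7 of 20 and 4 of 12, with p = 1 by the same exact test. A difference in Cxcr4 detection was not found at either threshold. At 0.01 the exact test could not have found one, because p = 0.133 is the lowest that any split of 2 detected arrays can give.

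**Figure D1:**
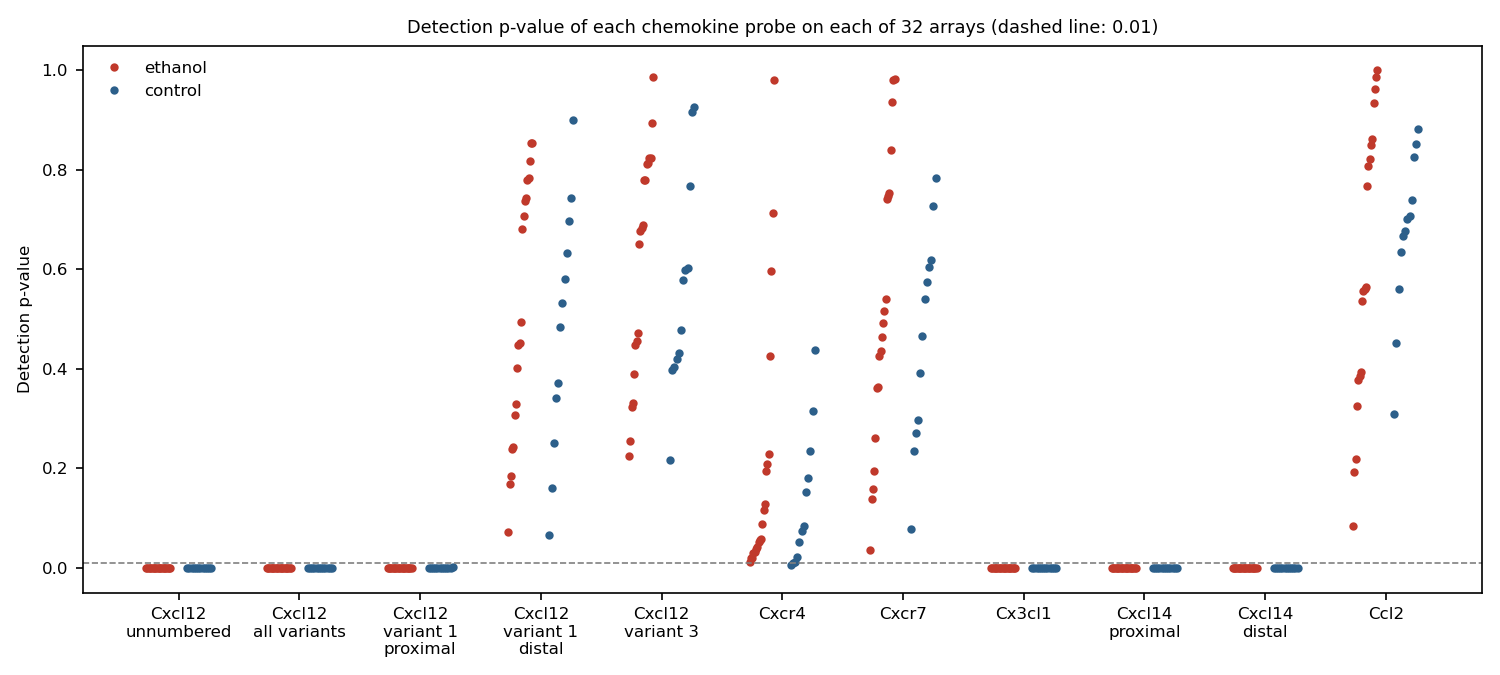
Detection p-value (vertical axis, no unit) of the 11 chemokine probes on each of 32 arrays, ethanol-treated mice in red and controls in blue, sorted within each group; the dashed line marks 0.01. All points of 6 probes lie at the bottom, 2 control arrays bring Cxcr4 below the line, and the points of the variant 1 distal and variant 3 probes of Cxcl12, of Cxcr7 and of Ccl2 are spread above it.

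The arrays were on 4 chips of 8. Chips 1 and 2 held only ethanol-treated mice, chip 4 only controls, and chip 3 was shared, with 4 ethanol-treated mice on its odd positions (A, C, E, G) and 4 controls on its even ones (B, D, F, H). The chips are as the labels give them, and on chip 3 treatment and position side cannot be told apart. Between 9480 and 11544 probes were detected per array, with the fewest in control C66, and 10187 probes entered the tests. Between even and odd positions of the same treatment, 22.8% of tested probes differed at an FDR of 10%, so values are given by chip and side where a result turns on them. Nothing in the labels ties mice to litters or cages. In tissue, fewer cells of a type and less RNA per cell cannot be told apart.

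Cx3cl1 was higher in ethanol-treated mice and was the single probe of these genes called at an FDR of 1%, the threshold of the methods. Its probe (ILMN_2627041, chr8:97306128-97306177, plus strand) starts at base 2945 of the transcript. On the log2 scale, its normalized value ran from 12.35 to 12.84 with a median of 12.64 in the 12 controls, and from 12.54 to 12.98 with a median of 12.80 in the 20 ethanol-treated mice. The groups overlapped, yet 19 of 20 ethanol-treated mice lay above the control median and 11 of 12 controls lay below the ethanol median. The difference was 0.17 ± 0.046 (SE, n = 20 and 12), or 1.12-fold, with an adjusted p = 0.00960 by limma. At an FDR of 1%, 1 of the 6 tested chemokine probes was called, beside 8.13% of all tested probes and 3.66% called higher.

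The lowest control was C66, the array with the fewest detected probes, at 12.35. Without it the Cx3cl1 difference was 0.14, with an adjusted p = 0.0256 by limma, which passes an FDR of 10% as 21% of probes did in that fit. On chip 3 the ethanol-treated mice had values of 12.77, 12.84, 12.80 and 12.93, and the controls had 12.69, 12.84, 12.61 and 12.79. These groups overlapped, and the difference of 0.10 had a 95% interval from -0.060 to 0.27 and an adjusted p = 0.432. Between chips 1 and 2 and chip 4 the difference was 0.21 (adjusted p = 0.00739), a call at an FDR of 1% that 11.5% of probes shared. With chip as a random block it was 0.15, with an adjusted p = 0.0958 by limma, where 9.45% of probes passed an FDR of 10%. The control mice themselves were higher on chip 3 than on chip 4 at even positions by 0.17 ± 0.083. This contrast of 4 against 4 arrays did not pass an FDR of 10% (adjusted p = 0.210 by limma). Whether chip or treatment set the Cx3cl1 level on chip 4, which holds only controls, cannot be told apart. The direction was the same in these 4 fits, and of them only the comparison that leaves out chip 3 passed an FDR of 1%.

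The receptor of Cx3cl1 was measured by 1 tested probe outside the chosen genes. Cx3cr1, named here after its values were seen, had a median of 8.05 in controls and 8.11 in ethanol-treated mice, and its difference was 0.042 with an adjusted p = 0.760 by limma. Of the microglial markers, 15 of 16 genes on the array were tested, and 0 passed an FDR of 1%. At an FDR of 10%, 1 rose and 1 fell, beside 1044 and 1289 of all 7926 tested genes. The mean level of the microglial markers ran from 8.30 to 8.47 in controls and from 8.24 to 8.45 in ethanol-treated mice.

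The 3 tested Cxcl12 probes did not change alike in the estimates, but no difference between them passed the test. The all-variant probe ran from 7.31 to 7.81 (median 7.62) in controls and from 7.55 to 7.87 (median 7.68) in ethanol-treated mice. Its difference was 0.088 ± 0.042, with a 95% interval from 0.0039 to 0.17 and an adjusted p = 0.138 by limma. Only 4 of 12 controls lay below all ethanol-treated mice, and 1 ethanol-treated mouse lay above all controls.

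The variant 1 proximal probe ran from 7.39 to 8.10 (median 7.91) in controls and from 7.74 to 8.41 (median 8.03) in ethanol-treated mice. It was higher in ethanol-treated mice by 0.19 ± 0.068, with an adjusted p = 0.0398 by limma, which passes an FDR of 10% and not of 1%. At an FDR of 10%, 2 of the 6 tested chemokine probes passed, this one and Cx3cl1, beside 25.4% of all tested probes. Of the 20 ethanol-treated mice, 6 lay above all controls, and 16 lay above the control median. C66 again had the lowest control value, 7.39, and without it the difference was 0.15 with an adjusted p = 0.104.

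The controls of chip 4 had the lowest mean values. Their 4 arrays at odd positions had a mean of 7.72 ± 0.23 (SD) and their 4 at even positions a mean of 7.79 ± 0.28, whereas the 4 controls of chip 3 had a mean of 8.03 ± 0.084. The means of the 5 sets of 4 ethanol-treated mice lay between 7.90 and 8.13. Chip 3 alone gave a difference of 0.089 with a 95% interval from -0.11 to 0.29 (adjusted p = 0.593), and chips 1 and 2 against chip 4 gave 0.27 (adjusted p = 0.0124), where 31.8% of probes passed an FDR of 10%. With chip as a random block the difference was 0.17 and its adjusted p = 0.217 by limma. Whether chip or treatment set the level on chip 4, which holds only controls, cannot be told apart.

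Without a block, the unnumbered-record probe showed no difference beyond its error over all arrays. It ran from 10.12 to 10.59 (median 10.38) in controls and from 9.94 to 10.76 (median 10.37) in ethanol-treated mice, so the ethanol group spanned the control group on both sides. The difference was -0.0018 ± 0.068, with a 95% interval from -0.14 to 0.14 and an adjusted p = 0.990 by limma. The SD was 0.22 in ethanol-treated mice and 0.14 in controls, a difference in spread that was not tested. Among ethanol-treated mice at odd positions, those of chip 3 differed from those of chips 1 and 2 by -0.31 ± 0.095 on the log2 scale, with an adjusted p = 0.189. On chip 3 the ethanol-treated mice had 9.94, 10.31, 10.32 and 10.13, and the controls 10.44, 10.29, 10.41 and 10.16. That difference of -0.15 had a 95% interval from -0.35 to 0.052 and an adjusted p = 0.343. With chip as a fixed block and position side it was -0.29, with a 95% interval from -0.55 to -0.032 and an adjusted p = 0.458 by limma.

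Whether Cxcl12 probes changed unequally was tested on their differences within each array. Over the table, 2865 pairs of tested probes share a symbol, and 17% of these pairs passed an FDR of 10% by limma. None of the 3 Cxcl12 pairs was among them, and 0 of 3 had an unadjusted p below 0.05 in this fit, which has no chip term. The unnumbered-record minus the variant 1 proximal probe changed by -0.20 ± 0.10, with a 95% interval from -0.40 to 0.0092 and an adjusted p = 0.217. The unnumbered-record minus the all-variant probe changed by -0.090 ± 0.084 (adjusted p = 0.546), and by -0.45 ± 0.17 with chip as a fixed block and position side (adjusted p = 0.449). The variant 1 proximal minus the all-variant probe changed by 0.11 ± 0.069 (adjusted p = 0.345). These intervals allow differences in the same range as the changes themselves. In alternative fits, each pair had an unadjusted p below 0.05 by limma at least once. Examples are 0.010 for the unnumbered-record minus the all-variant probe with chip as a fixed block and position side. Without chip 3, the pairs with the variant 1 proximal probe had 0.033 and 0.034. None of these passed an FDR of 10%.

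**Figure D2:**
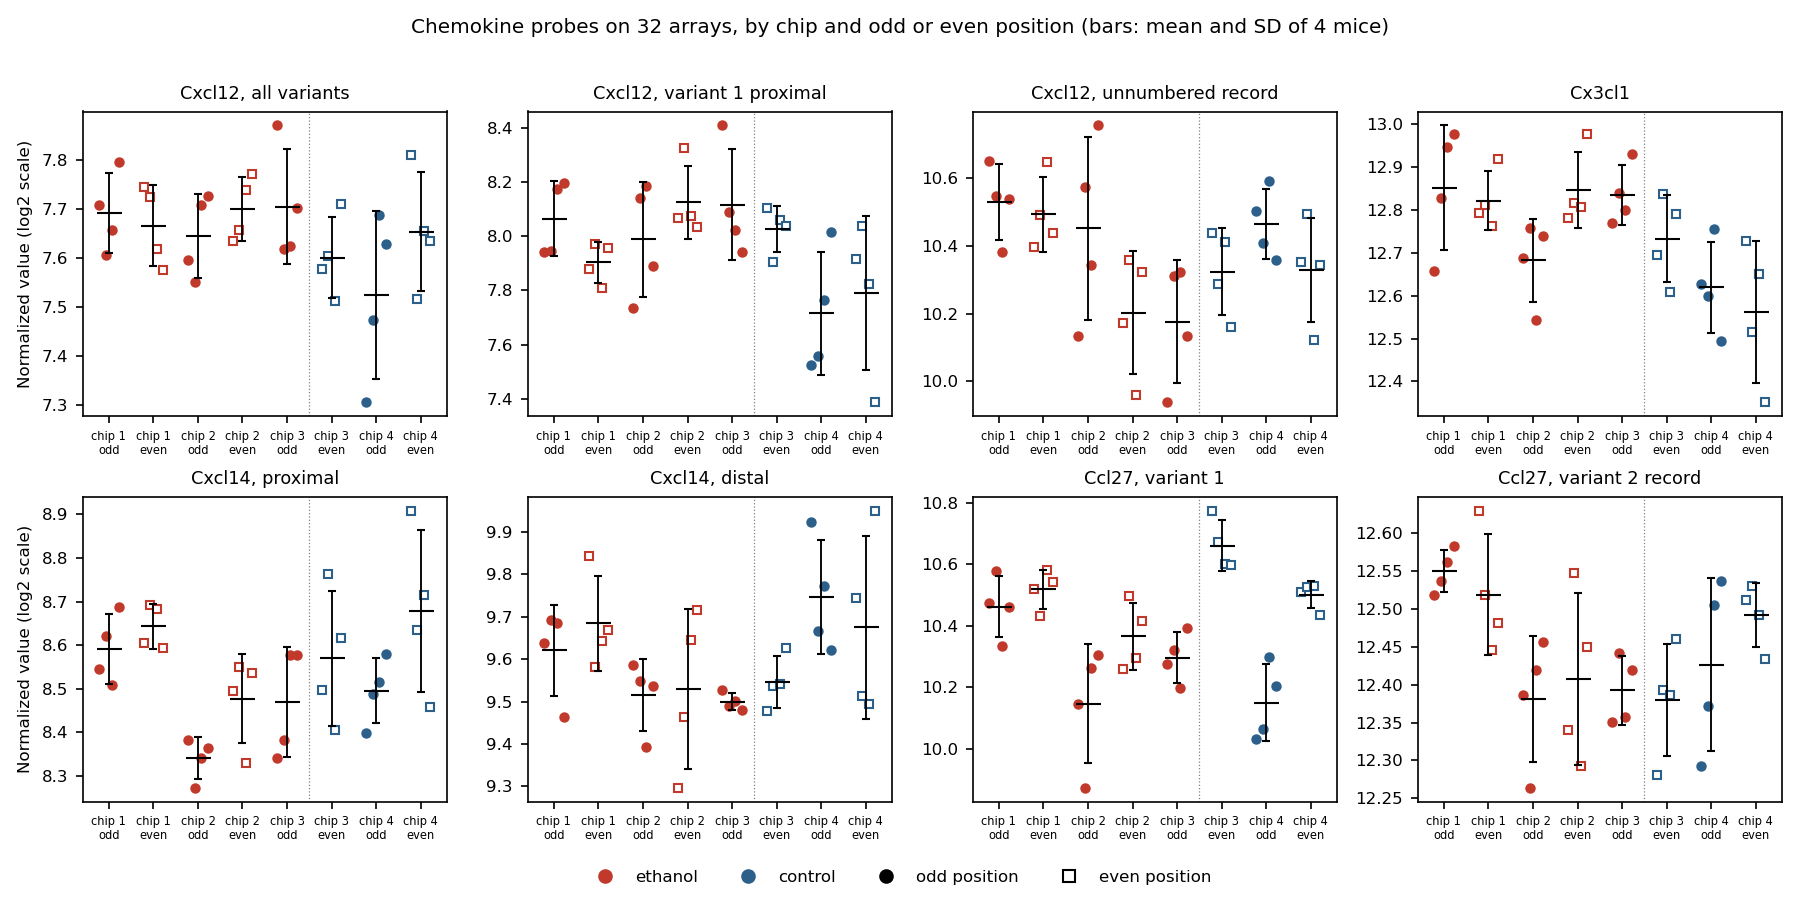
Normalized value (log2 scale, own axis in each panel) of the 6 tested chemokine probes and the 2 Ccl27 probes on 32 arrays, grouped by chip and position side, ethanol-treated mice in red and controls in blue; bars give the mean and SD of 4 mice. The chip 4 controls lie lowest for the variant 1 proximal probe of Cxcl12 and for Cx3cl1, and the Ccl27 variant 1 probe is higher at even positions.

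The 2 Cxcl14 probes were lower in ethanol-treated mice in the estimates, without passing the test. The proximal probe (ILMN_2659426) starts at base 602 of the transcript and has no coordinates in the file. The distal probe (ILMN_2760800, chr13:56390190-56390239, minus strand) starts at base 1591.

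Cxcl14 proximal: agctgcagagcaccaaacgcttcatcaagt
Cxcl14 distal: cactgttctctgagttaggatgttaggacg

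The proximal probe ran from 8.40 to 8.91 (median 8.55) in controls and from 8.27 to 8.69 (median 8.54) in ethanol-treated mice. Its difference was -0.077 ± 0.052, with a 95% interval from -0.18 to 0.028 and an adjusted p = 0.313 by limma. The distal probe ran from 9.48 to 9.95 (median 9.62) in controls and from 9.30 to 9.84 (median 9.56) in ethanol-treated mice. Its difference was -0.086 ± 0.052, with a 95% interval from -0.19 to 0.019 and an adjusted p = 0.254. The groups overlapped for both probes, and the medians of the proximal probe were nearly equal. When arrays were scaled to a common median instead, the differences were -0.00024 and 0.00044, so the direction rests on the normalization. The change of 1 probe minus the other was 0.0083 ± 0.072, with an adjusted p = 0.957.

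For the proximal Cxcl14 probe, chips under the same treatment differed by more than the treatments did. Ethanol-treated mice of chip 2 differed from those of chip 1 by -0.21 ± 0.060, with an adjusted p = 0.0523 by limma. Arrays at even positions were higher than those at odd positions of the same treatment by 0.12 ± 0.049 (adjusted p = 0.0775). Both pass an FDR of 10%, beside 5.7% of tested probes for the chips and 22.8% for the position side. The distal probe did not pass in either comparison, with -0.13 (adjusted p = 0.294) between chips and 0.0025 (adjusted p = 0.983) between sides.

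**Figure D3:**
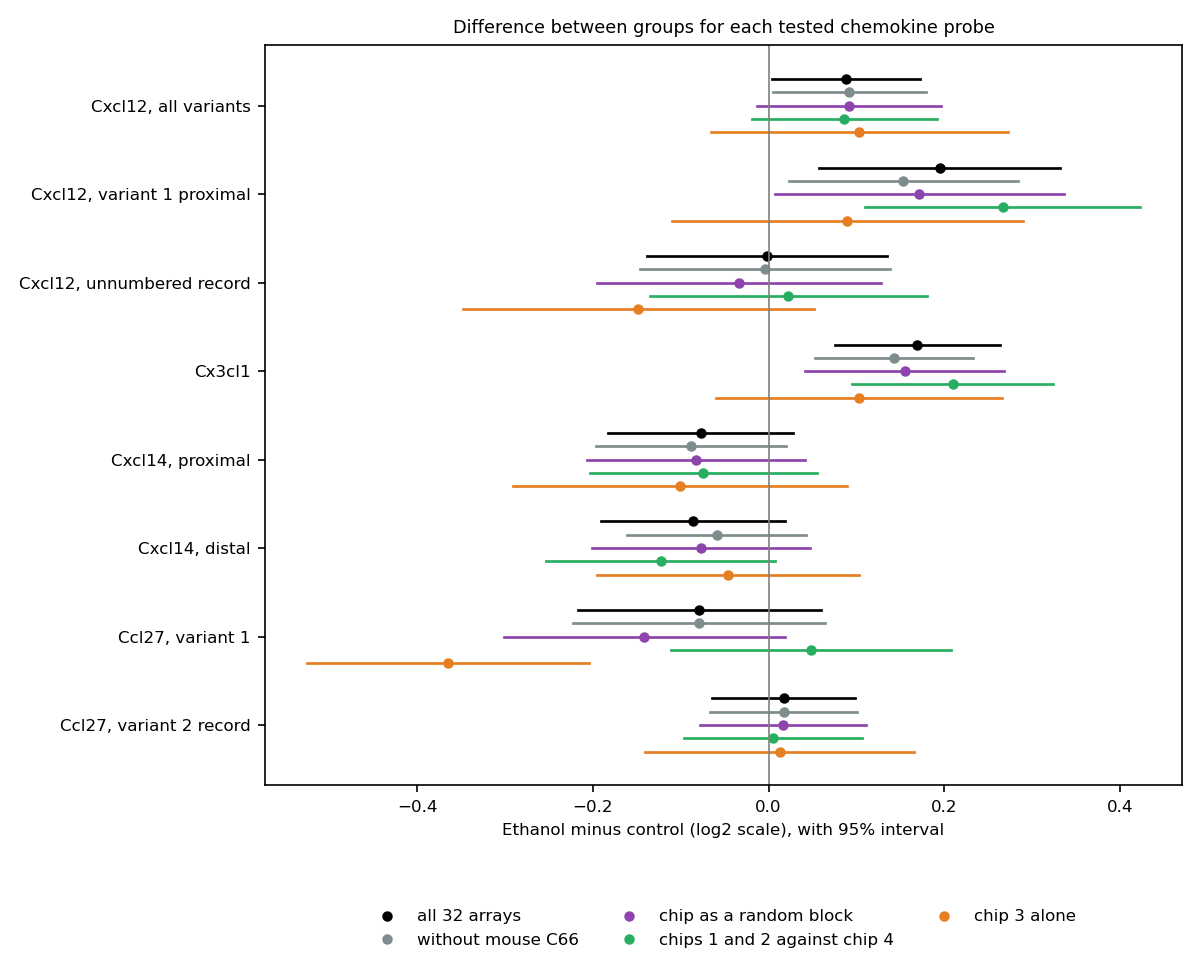
Ethanol minus control on the log2 scale with its 95% interval (horizontal axis) for the 6 tested chemokine probes and the 2 Ccl27 probes, in 5 fits that differ in the arrays used or in how chip enters. Cx3cl1 lies above 0 in all 5, its chip 3 interval reaches below 0, and the Ccl27 variant 1 probe lies clearly below 0 only on chip 3.

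Ccl27 was detected on all 32 arrays by both of its probes, and they disagreed on chip 3. The symbol Ccl27 is an older name of Ccl27a in the reference table, which also lists a second gene, Ccl27b, so copies of the gene could share these probes. The variant 1 probe (ILMN_1216183, chr4:41716717-41716766, minus strand) starts at base 178. The other (ILMN_3146018, chr4:41716428-41716477) is typed A and starts at base 444 of the variant 2 record.

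Ccl27 variant 1: cacatggaactgcaggaggccgatggggac
Ccl27 variant 2 record: ctggctcggtggttagaacgccaagggaaa

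Over all arrays, the variant 1 probe differed by -0.079 ± 0.068 (adjusted p = 0.451) and the variant 2 record probe by 0.017 ± 0.040 (adjusted p = 0.808), both by limma. On chip 3 the variant 1 probe had values of 10.28, 10.32, 10.20 and 10.39 in ethanol-treated mice and 10.77, 10.67, 10.60 and 10.60 in controls. The groups did not overlap there, as for 15.2% of tested probes on that chip, and the difference was -0.36 with an adjusted p = 0.00788, where 15.5% of probes passed an FDR of 10%. Between chips 1 and 2 and chip 4 the same probe differed by 0.049 (adjusted p = 0.692). Arrays of the same treatment were higher at even than at odd positions by 0.21 ± 0.048 (adjusted p = 0.00427), and the controls of chip 3 are the even positions. With chip as a fixed block and position side as a term, the difference was -0.16 with an adjusted p = 0.665. The variant 2 record probe differed by 0.013 on chip 3 (adjusted p = 0.937) and by 0.020 between sides (adjusted p = 0.771). The within-array difference of the 2 probes changed by -0.38 on chip 3, with an adjusted p = 0.0429, beside 8.45% of probe pairs. This call did not hold without control C52 (-0.31, adjusted p = 0.112) or without ethanol-treated mouse A49 (-0.36, adjusted p = 0.103). Over all arrays it changed by -0.096 (adjusted p = 0.385).

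None of the 6 tested chemokine probes passed an FDR of 10% on chip 3, and 0 of 6 did so when each of its 8 arrays was left out in turn. At an unadjusted p below 0.05, 0 of 6 passed on chip 3. These counts stand beside 15.5% and 26.4% of all tested probes on that chip. In simulated data, 3 of 200 probes given a log2 change of 0.3 were recovered on chip 3 at an FDR of 10%. With all arrays, 159 of 200 were recovered at an FDR of 1%. Both simulations ran on 10187 probes, held no chip or position differences and changed only these 200 probes. On the real chip 3, 15.5% of probes passed, so the simulation does not measure what could be found there.

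Probes of the same gene did not move closely together from mouse to mouse. Values were centred within each of the 8 sets of 4 arrays that share chip, position side and treatment, and correlated over the 32 arrays, which share 1 normalization. The all-variant and variant 1 proximal probes of Cxcl12 correlated with r = 0.32. The unnumbered-record probe had r = -0.23 with the all-variant and -0.035 with the variant 1 proximal probe. The Cxcl14 probes had r = -0.32. Over all 2865 pairs of tested probes of a gene, the median was 0.15, with quartiles of -0.018 and 0.33, so the first Cxcl12 pair lay near the upper quartile and the other pairs near or under the lower one. These are descriptions of these arrays.

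**Figure D4:**
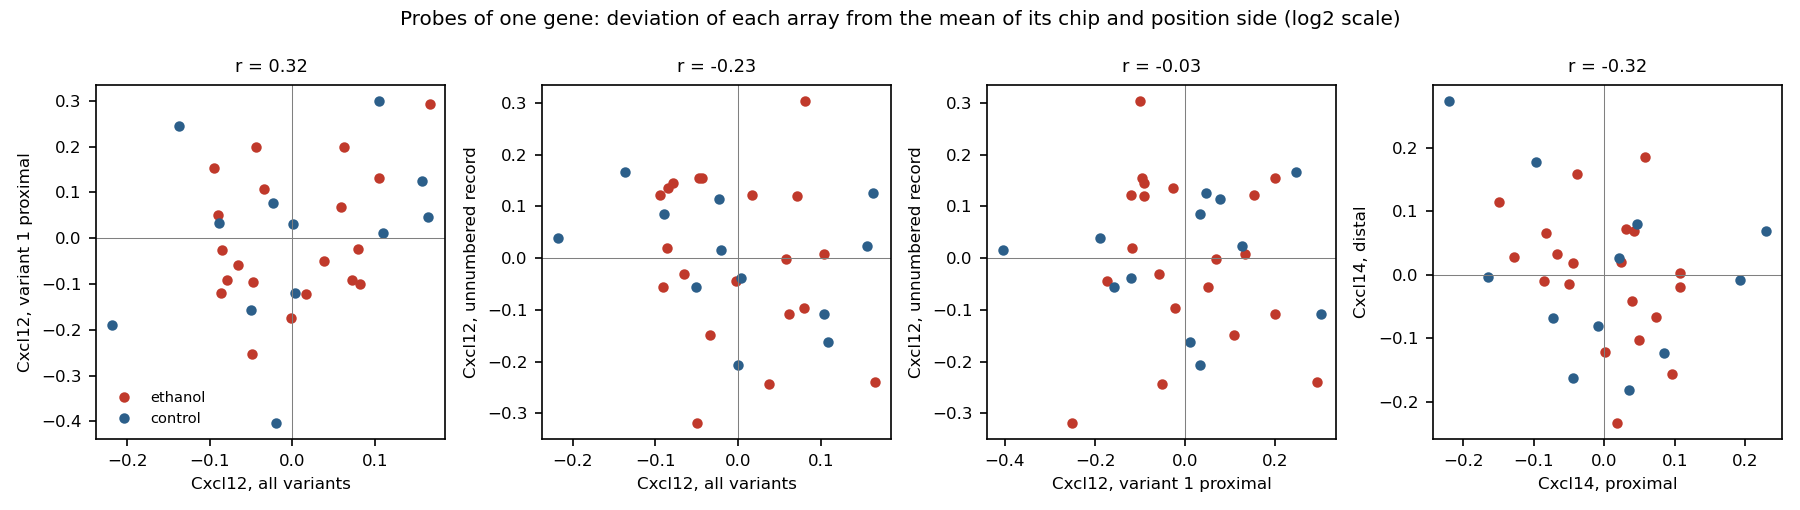
Deviation of each array from the mean of its chip and position side (log2 scale, both axes) for 3 pairs of Cxcl12 probes and for the Cxcl14 pair, ethanol-treated mice in red and controls in blue. The first pair rises with r = 0.32, the second falls with -0.23 and the third with -0.035, and the Cxcl14 pair falls with -0.32.

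Between genes, the largest of these correlations among the 6 probes in size were 0.52 for Cx3cl1 with the proximal Cxcl14 probe and -0.51 for the variant 1 proximal probe of Cxcl12 with the distal Cxcl14 probe. Among the other genes on the array, the pattern of Cx3cl1 was most like that of Gtdc1 (r = 0.77), Ddx47 (0.76) and Tbl3 (0.74). Gtdc1 differed between the groups by 0.20 with an adjusted p = 0.0148, Ddx47 by -0.028 and Tbl3 by 0.0076. The unnumbered-record probe of Cxcl12 was most like Ptn (0.66), Gins4 (0.66) and Prep (0.64), the all-variant probe most like Ppp2cb (0.67), LOC100045304 (0.65) and Slc7a3 (0.63), and the variant 1 proximal probe most like BC067068 (0.67), Sec14l2 (0.67) and 3010026O09Rik (0.65). No gene was named for more than 1 of the 3 probes, but lists of only 3 genes cannot show whether the probes share a pattern. For Cxcl14, the proximal probe was most like Spag1, Gna12 and Clcn4-2 (each 0.65) and the distal probe most like Atox1 (0.73), Snf8 (0.66) and 1700030K09Rik (0.66). Atox1 differed by -0.25 between the groups (adjusted p = 0.00109). Such values are the highest over all tested genes and are given as likeness over 32 arrays only.

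Other chemokine genes were mostly dark. Of 32 further ligand genes on the array, 23 were detected on no array and 5 were tested, with 0 passing an FDR of 10% over all arrays. On chip 3, 3 of their 7 probes passed it, all lower, beside 15.5% of all tested probes on that chip. They were the Ccl27 variant 1 probe described above, Ccl21c at -0.42 (adjusted p = 0.0192) and Ccl21a at -0.21 (adjusted p = 0.0765). The Ccl21 genes are near-identical copies named here after their values were seen. With chip as a fixed block and position side, Ccl21c had -0.29 (adjusted p = 0.400 by limma) and Ccl21a -0.050 (adjusted p = 0.938). Over all arrays, the median difference of the 5 tested ligand genes was -0.057, against -0.0085 over all tested genes. On chip 3 the same median was 0.013, against 0.0054. Each gene entered these medians by its brightest probe. Of 22 further receptor genes, 16 were detected on no array and 3 were tested, again with 0 passing. The array names its own older symbols, among them Darc for the atypical receptor Ackr1 and Ccbp2 for Ackr2. At an unadjusted p below 0.05, 0 of these 7 ligand probes and 3 receptor probes passed, beside 31.9% of all tested probes.

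Of 25 tested genes among G protein subunits, arrestins, receptor kinases and their effectors, 3 rose and 3 fell at an FDR of 1%, and 6 rose and 6 fell at an FDR of 10%. Over all 7926 tested genes, 333 rose and 438 fell at an FDR of 1%, and 1044 rose and 1289 fell at an FDR of 10%. The list's median difference was 0.0087. Gnai2, an inhibitory G protein subunit through which Cxcr4 signals, fell by 0.25 (adjusted p = 0.00398), whereas Gnao1, the abundant neuronal subunit of the same class, rose by 0.22 (adjusted p = 0.00533). Arrb2, an arrestin that binds Cxcr7, fell by 0.24 (adjusted p = 0.00262). Gng2, a gamma subunit, fell by 0.32 on 1 probe (adjusted p = 0.00122), and its second probe had -0.073 (adjusted p = 0.489). Cdc42, a small GTPase of cell movement, rose by 0.33 (adjusted p = 0.00117). The 6 probes of this list that passed an FDR of 10% on chip 3 were all lower there, those of Gng2, Arrb2 and Gnai2 among them, beside 15.5% of all probes. Cdc42 had 0.094 on chip 3 (adjusted p = 0.684) and Gnao1 had 0.042 (adjusted p = 0.763). None of the list passed an FDR of 10% with chip as a fixed block and position side, beside 0.0687% of all probes. Of 10 tested genes that cleave, bind or present chemokines, 0 passed an FDR of 1%, and 1 rose at an FDR of 10%. It was Mmp14, a membrane metalloprotease that cuts Cxcl12, with 0.20 (adjusted p = 0.0460), and it is named here after its value was seen.

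Markers of the cells that make or receive these ligands were compared in the same fit. At an FDR of 1%, 333 of all 7926 tested genes rose and 438 fell. Of 6 tested genes of cortical projection neurons, 4 fell at that threshold. Their mean level ran from 10.07 to 10.32 in controls and from 9.90 to 10.15 in ethanol-treated mice. Tbr1 had -0.38, Slc17a7 -0.26, Nrn1 -0.21 and Fezf2 -0.19. On chip 3, 2 of the 6 projection neuron probes passed an FDR of 10%. With chip as a fixed block and position side, 0 did, beside 0.0687% of all probes. Cx3cl1, which such neurons express, had 0.17 over all arrays and 0.10 on chip 3. The part of neuron content in its difference was not tested. Of 11 tested astrocyte genes, 2 rose, the water channel Aqp4 at 0.61 and Acsbg1 at 0.26 on 1 of its 2 probes. On chip 3 they had 0.64 and -0.059. Of 4 tested mural genes, 2 had a probe that rose. Rgs5 had 0.44, but 0.092 on chip 3 (adjusted p = 0.663) and -0.083 with chip as a fixed block and position side. Acta2 had 0.28 and 0.29 on 2 of its 4 tested probes and -0.062 (adjusted p = 0.582) and -0.023 (adjusted p = 0.884) on the others, while all 4 passed an FDR of 10% on chip 3, at 0.25 to 0.35. Of 12 tested endothelial genes, 1 fell, the glucose transporter Slc2a1 at -0.26. Of 10 tested oligodendrocyte genes, 1 had a probe that rose, Mbp at 0.64, and its other 2 tested probes had -0.17 (adjusted p = 0.121) and -0.062 (adjusted p = 0.699). On chip 3, 12 of the 17 oligodendrocyte probes passed an FDR of 10%, 11 of them lower, and the mean level of the list differed by -0.41. Over all arrays the mean level of the list ran from 9.78 to 10.78 in controls and from 9.83 to 11.08 in ethanol-treated mice. None of the 9 tested genes of the leptomeninges, 9 of interneurons and 3 of blood passed an FDR of 1%. Their mean levels ran from 8.43 to 9.30, from 11.13 to 11.37 and from 9.04 to 10.03 in controls and from 8.28 to 9.13, from 11.16 to 11.36 and from 8.87 to 10.03 in ethanol-treated mice. On chip 3, 5 of 10 leptomeningeal, 4 of 10 interneuron and 0 of 3 blood probes passed an FDR of 10%, beside 15.5% of all probes. The mean levels of the first 2 of these lists were higher in ethanol-treated mice there, by 0.26 and 0.17. No gene of the choroid plexus list was tested, and 7 of 8 were detected on no array.

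Olfactory bulb markers, which the dissection was meant to leave out, were present and varied. The mean of 6 tested genes ran from 7.17 to 9.14 in controls and from 7.25 to 9.49 in ethanol-treated mice, and on chip 3 the ethanol-treated mice were higher by 0.79. With chip and position side removed, the distal Cxcl14 probe had r = -0.47 with this level, -0.45 with the interneuron level and 0.42 with the projection neuron level. The proximal probe had r = -0.037, 0.040 and -0.21 with the same levels and -0.59 with the microglial level. Cx3cl1 had r = -0.035 with the olfactory bulb and 0.046 with the projection neuron level, and its largest in size was -0.36 with the microglial level. The 3 Cxcl12 probes had values from -0.29 to 0.11 with the olfactory bulb level. Their largest in size were -0.44 with the interneuron level for the all-variant probe and -0.22 with the mural level for the variant 1 proximal probe. For the unnumbered-record probe it was 0.34 with the blood level. The part of tissue composition in the group differences was not tested.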

How the data were processed

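The 20 ethanol-treated and 12 control mice are grouped by their labels. The authors deposited a bead summary table without normalization: the mean intensity of each probe's beads on a linear scale, a detection p-value, and as other values the bead standard error and number of beads (from 19 to 64 for the chemokine probes). The background step behind them is not given in the sources used here. The submitters' notes name lumi and limma without versions. Chip and position come from the labels, and 0 columns had no sample.

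Here a variance-stabilizing transform after the one in lumi was computed from the bead errors and followed by quantile normalization. Only probes detected (p-value below 0.01) on 24 or more of the 32 arrays were tested, by limma 3.58.1 in R 4.3.3, with no covariate and Benjamini-Hochberg adjustment over 10187 probes. Differences are ethanol minus control on the transformed log2 scale. A call is an FDR below 1%, and 10% is also given. Probes sharing a symbol were compared by limma on their within-array differences. Detection was compared by Fisher's exact test in Python 3.11.15 with scipy 1.17.1. The scripts were tested on simulated data. Of 104 pairs made unequal among 2865, 65 were recovered at an FDR of 10%, with 4 false calls.

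The genes and lists were chosen with earlier results of these data known, so no list has a test of its own. Genes marked as named after their values were seen fall outside the naming rule. By that rule, all chosen members are named, with genes of other lists called at an FDR of 1%. For each tested probe, the 3 genes most correlated with it are also named. A gene that this rule covers is counted in its list but not reported here by name. The number of arrays limits the precision. The reported fit has no chip term, so its p-values treat the arrays as independent. They do not separate the spread between mice from differences between chips or position sides. Over tested probes, the median SD within a group was 0.151. The alternatives are given in the closing section.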

Additional observations from a re-analysis of the deposited data

How the results depend on the processing

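The FDR of 1% was passed by 828 probes of the array. It was passed by 229 with median scaling, 59 with chip as a random block, 17 with chip as a fixed block, 2 with chip as a fixed block and position side, and 273 on chip 3 alone, and 2592 passed an FDR of 10%. Median scaling also moved the median difference over all tested probes from -0.0041 to 0.060. It left 207 probes higher and 22 lower in ethanol-treated mice, against 373 and 455. Of the 6 chemokine probes, 1 was called in the reported fit, and 2 at an FDR of 10%. The count was 0 with normexp background, median scaling, all probes of the array, a detection p-value below 0.05, chip as a fixed or random block, chip as a fixed block with position side, chip 3 alone, and without control C66. The adjusted p of Cx3cl1 over the alternatives ran from 0.00695 to 0.734, and its difference kept its sign in all 14. With all probes of the array, 1 Cxcl12 pair passed an FDR of 10% (variant 1 proximal minus the undetected variant 3 probe, 0.22, adjusted p = 0.0891), against 0 otherwise.

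Some estimates turned sign, none of them past the threshold. The unnumbered-record probe of Cxcl12 had 0.072 with median scaling and 0.023 without chip 3. The Cxcl14 probes had 0.023 with chip as a fixed block and position side (proximal) and 0.00044 with median scaling (distal). Variant 1 proximal minus all-variant was -0.014 with chip as a fixed block, -0.050 with position side added, and -0.014 on chip 3 alone. On chip 3 the count of called chemokine probes was from 0 to 0 without each array. No paired analysis was possible because each mouse number occurs once.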
